A study of Mus musculus with 24 samples.

Results

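PRRX1 sites that were listed in exactly 2 of 3 mouse fibroblast types are described here. PRRX1 summits of mouse embryonic fibroblasts (MEF), of MMTV-PyMT breast tumour fibroblasts (MMTV), a cancer-associated type, and of wound-healing fibroblasts (Wound) were widened by 250 bp on each side and merged. Of the 13405 merged sites, 2128 held summits of exactly 2 lists, 533 of all 3 lists and 10744 of 1 list. The 2128 sites formed 3 pairs: 684 MEF+Wound sites, 1092 MMTV+Wound sites and 352 MEF+MMTV sites. The members were thus chosen by a measured value, the presence of a PRRX1 summit in each wild-type list, so presence, overlap and −log10 p of PRRX1 are given as descriptions. Sequence, position and histone marks were not part of the rule.

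The libraries came from cultures that were all immortalised by HPV E6/E7. MEF (strain C57BL/6) were made from embryos of day 10 to 13, Wound cells (C57BL/6) from skin wounds at day 10 after wounding, and MMTV cells (FVB/NJ) from the tumours, so strain and cell type cannot be told apart for MMTV. H3K27ac, a mark of active enhancers and promoters, and H3K4me3, a mark of active promoters, were mapped by ChIP-seq in cells with the wild-type (WT) gene and in Prrx1-deficient cells, called deleted below, which are SG (guide RNA) in all 3 types and KI in MEF. The labels do not spell out KI. Their protocol names 1 mutant line, 129S-Prrx1tm1Jfm/Mmmh, and the study writes K/I for its Prrx1 mutant mice with a knocked-in lacZ gene, so KI is an insertion and not a guide deletion. WT of the guide experiment are cells with the control guide SgNS. Whether a culture is 1 clone is not stated. Every group has 1 library, and the PRRX1 lists are of WT cells. No p-value is given. The 95% Wilson intervals below cover counting over sites and not differences between cultures.

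As a check of the cell types, H3K4me3 regions covered the transcription start site (TSS) of 9 to 11 of 12 fibroblast marker genes in the 3 WT types (Lum, which encodes lumican, in 0 of them, Thy1 not in MMTV, and Dcn and Col3a1 not in Wound). They covered 1 to 2 of 10 epithelial, 1 of 9 leukocyte and 1 of 10 endothelial marker genes. The PRRX1 lists held 3048 (MEF), 8000 (MMTV) and 5698 (Wound) summits, with median −log10 p of 8.41, 6.94 and 6.32. Read totals are not part of these lists, so the depth behind them is unknown. The Wound list held 381 distinct −log10 p values over its 5698 summits, against 1116 in MEF and 1759 in MMTV, so its values fall on coarse steps.

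PRRX1 is a paired-type homeodomain transcription factor of mesenchymal cells. It is known for its part in limb and craniofacial development and is used as a marker of fibroblast lineages in skin and tumours. Homeodomains recognise short AT-rich words around TAAT, and paired-type members can bind as dimers to a TAAT and an ATTA that face each other across a few bases. Binding far from genes can act through enhancers, which carry H3K27ac when active, whereas binding beside a TSS lies in promoters, which carry H3K4me3 as well.

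The windows below, 100 bases to each side of the better placed summit of a site, show the sequence at sites with high PRRX1 values in both lists and are not typical of every pair. They are the 3 sites per pair with the best placing in their weaker list that lay outside exons. Capitals mark TAATTA and the AP-1 word TGANTCA. All come from the mm9 assembly, plus strand. The first 3 are MEF+Wound sites.

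MEF+Wound, chr8:63288017-63288217, intergenic, nearest TSS of 2700029M09Rik: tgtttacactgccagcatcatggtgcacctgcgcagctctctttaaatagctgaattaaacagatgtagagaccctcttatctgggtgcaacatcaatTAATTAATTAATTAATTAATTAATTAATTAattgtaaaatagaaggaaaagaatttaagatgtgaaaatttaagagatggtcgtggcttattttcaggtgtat
MEF+Wound, chr11:35330868-35331068, intron, nearest TSS of Pank3: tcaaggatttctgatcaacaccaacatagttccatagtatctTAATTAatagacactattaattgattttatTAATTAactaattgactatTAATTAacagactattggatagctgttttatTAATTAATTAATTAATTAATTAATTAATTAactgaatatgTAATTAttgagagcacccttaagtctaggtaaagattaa
MEF+Wound, chr1:171431076-171431276, intron, nearest TSS of Nuf2: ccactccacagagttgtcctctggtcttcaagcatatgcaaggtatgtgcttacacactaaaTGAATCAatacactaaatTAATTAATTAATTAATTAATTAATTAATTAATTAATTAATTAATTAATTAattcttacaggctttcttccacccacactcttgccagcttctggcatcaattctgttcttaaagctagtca

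The 3 windows of MEF+Wound carried 7, 11 and 12 copies of TAATTA and unbroken runs of the 4-base unit TAAT of 36, 32 and 56 bases. The next 3 are MMTV+Wound sites.

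MMTV+Wound, chr16:11144101-11144301, intron, nearest TSS of Txndc11: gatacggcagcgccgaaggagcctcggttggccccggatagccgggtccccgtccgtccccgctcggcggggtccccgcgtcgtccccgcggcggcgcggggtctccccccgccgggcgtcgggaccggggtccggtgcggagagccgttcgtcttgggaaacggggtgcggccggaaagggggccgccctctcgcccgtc
MMTV+Wound, chr3:5860495-5860695, intergenic, nearest TSS of Pxmp3: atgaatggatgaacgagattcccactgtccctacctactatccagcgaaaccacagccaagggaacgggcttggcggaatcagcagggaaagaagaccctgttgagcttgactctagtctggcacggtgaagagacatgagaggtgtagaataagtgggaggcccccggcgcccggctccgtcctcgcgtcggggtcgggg
MMTV+Wound, chr2:5300198-5300398, intron, nearest TSS of Ccdc3: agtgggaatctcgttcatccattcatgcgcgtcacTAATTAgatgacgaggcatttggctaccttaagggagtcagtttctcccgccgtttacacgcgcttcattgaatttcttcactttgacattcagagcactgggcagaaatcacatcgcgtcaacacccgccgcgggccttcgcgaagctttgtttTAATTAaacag

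The first window of MMTV+Wound had a GC content of 78.6% and no TAATTA, and each of its tested words of 31 bases occurred 2 to 4 times in the genome. The central word of the second occurred 11 times. Whether these windows are copies of a repeated element was not tested. The second and the third lie on different chromosomes and share a stretch of 26 bases when 1 of them is read on the opposite strand. The last 3 are MEF+MMTV sites.

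MEF+MMTV, chr3:134292908-134293108, intergenic, nearest TSS of Tacr3: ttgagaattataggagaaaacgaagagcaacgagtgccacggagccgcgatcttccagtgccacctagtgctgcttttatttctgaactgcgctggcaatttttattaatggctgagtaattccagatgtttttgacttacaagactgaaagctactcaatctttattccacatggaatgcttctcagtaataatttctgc
MEF+MMTV, chr16:18555433-18555633, intron, nearest TSS of Tbx1: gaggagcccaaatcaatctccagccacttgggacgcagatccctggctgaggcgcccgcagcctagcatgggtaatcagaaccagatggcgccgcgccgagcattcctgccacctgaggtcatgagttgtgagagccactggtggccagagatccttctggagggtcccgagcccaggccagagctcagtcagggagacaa
MEF+MMTV, chr13:6059311-6059511, intergenic, nearest TSS of Klf6: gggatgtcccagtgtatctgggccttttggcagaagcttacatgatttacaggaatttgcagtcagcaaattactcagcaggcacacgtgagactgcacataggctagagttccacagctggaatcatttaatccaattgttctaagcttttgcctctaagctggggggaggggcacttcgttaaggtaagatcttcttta

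None of the 3 MEF+MMTV windows held TAATTA or the AP-1 word, although 60.5% of that pair's sites held TAATTA. All 7 words of 31 bases tested in each were found once in the genome.

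The 3 pairs took unequal parts of the lists. MEF+Wound sites held 22.4% of all MEF summits and 12.1% of all Wound summits. MMTV+Wound sites held 19.7% of the Wound summits and 13.9% of the MMTV summits. MEF+MMTV was the smallest pair and held 11.6% of the MEF summits and 4.46% of the MMTV summits. The order of these sizes depended on the cutoff. With a −log10 p of at least 10 in every list there were 247 MEF+Wound, 192 MMTV+Wound and 122 MEF+MMTV sites, and with each list kept to 3048 summits there were 636, 446 and 265.

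PRRX1 values at the shared sites were above those at sites of 1 list, with the exception of MEF+MMTV in MEF. At MEF+Wound sites the median −log10 p was 11.6 in MEF and 8.31 in Wound, against 7.43 at sites of MEF alone and 5.41 at sites of Wound alone. At MMTV+Wound sites it was 8.53 in MMTV, against 6.45 at sites of MMTV alone, and 7.15 in Wound. At MEF+MMTV sites it was 7.43 in MEF, the same as at sites of MEF alone, and 8.46 in MMTV. A −log10 p below 5 in at least 1 of the lists was seen at 9.94% of MEF+Wound, 22.3% of MMTV+Wound and 17.3% of MEF+MMTV sites. The plot of both values shows where the sites with a run of TAAT units lie in each pair.

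**Figure D1:**
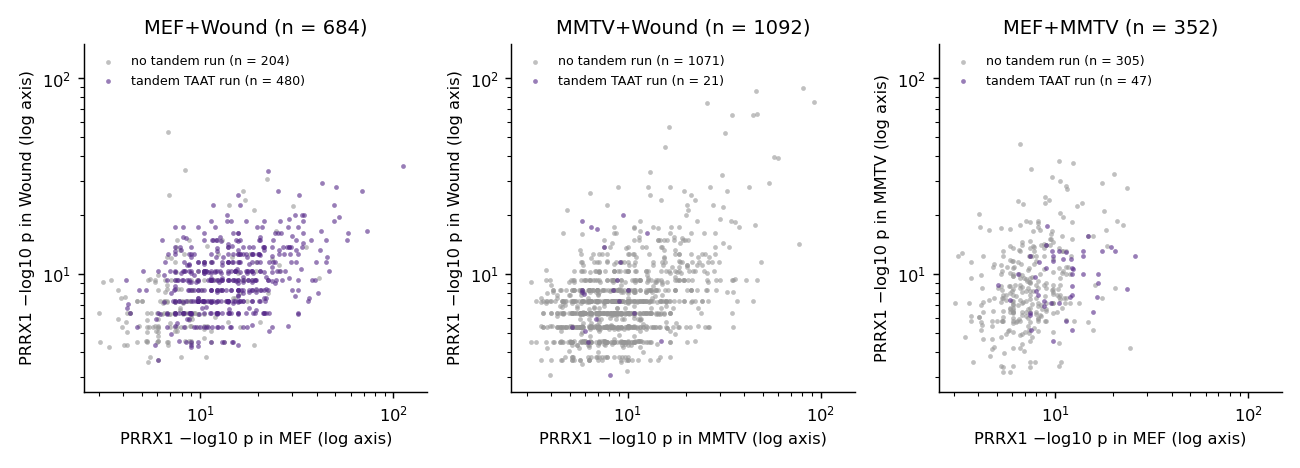
PRRX1 −log10 p of each site in its 2 lists (log axes), one panel per pair, each point a site and purple points sites with a tandem run of TAAT units of 16 or more bases. Purple points are 480 of 684 in MEF+Wound and 21 of 1092 in MMTV+Wound, and the highest MMTV+Wound points are grey.

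The summits of the 2 lists lay close together. The median distance between them was 31 bp in MEF+Wound, 57 bp in MMTV+Wound and 40 bp in MEF+MMTV, and 70.8%, 47.0% and 57.4% of the sites had both summits within 50 bp. Few sites rested on the merging distance: in the last 100 bp below the limit of 500 bp there were 1, 22 and 4 sites, and in the next 100 bp, where summits were not merged, 0, 22 and 2 pairs of summits. At the 22 MMTV+Wound sites just inside the median −log10 p was 5.98 in MMTV and 5.39 in Wound, and just outside it was 7.48 and 5.39. A summit of the third list lay within 2 kb at 2.05%, 1.92% and 3.41% of the sites.

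MEF+Wound sites lay mostly on tandem repeats of TAAT. An unbroken run of at least 4 such units, 16 bases or more, lay within 100 bp of the summit at 480 of 684 MEF+Wound sites (70.2%, 95% interval 66.6 to 73.5). The same held for 47 of 352 MEF+MMTV sites (13.4%, 10.2 to 17.3) and 21 of 1092 MMTV+Wound sites (1.92%, 1.26 to 2.92), against 10.7% of all merged PRRX1 sites. Windows 2 kb to either side held such a run in 0 of 1368 cases for MEF+Wound and in 0.0336% of cases for all sites. The median run in the MEF+Wound sites that had one was 24 bases and the longest 56. Sites of 1 list showed the same split between types, with a run at 28.5% of the sites of MEF alone, 9.28% of Wound alone and 0.874% of MMTV alone.

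**Figure D2:**
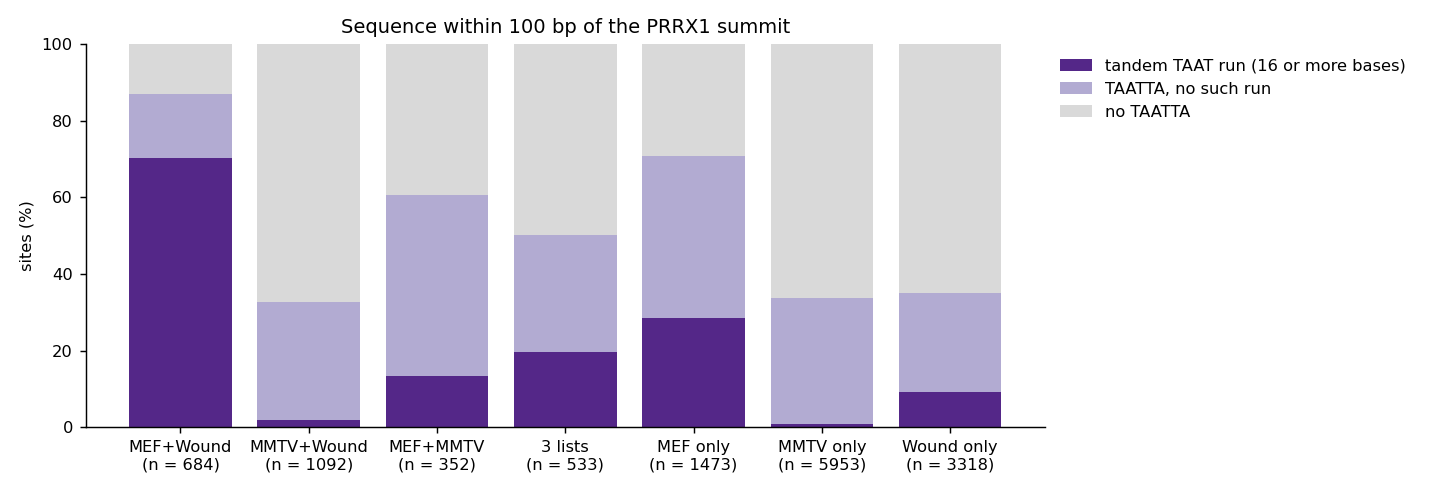
Share of sites (%) with a tandem TAAT run of 16 or more bases, with TAATTA but no such run, and with no TAATTA within 100 bp of the summit, for the 3 pairs, the sites of 3 lists and the sites of 1 list. The run is the largest class in MEF+Wound (70.2%) and 1.92% of MMTV+Wound.

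Seen from the genome, the 3889 runs of 16 or more bases were listed unequally in the 3 types. A PRRX1 summit lay within 100 bp of 28.7% of them in MEF, 25.1% in Wound and 5.55% in MMTV. In MEF and Wound the share was higher for longer runs up to 39 bases. Of the 1965 runs of 16 to 19 bases, 17.5% had a MEF summit and 12.3% a Wound summit. Of the 858 runs of 24 to 31 bases, 48.1% and 43.7% had one, and of the 189 runs of 32 to 39 bases 64.6% and 74.1%. In MMTV the shares at these lengths were 5.8%, 4.9% and 8.99%, and 0 of the 30 runs of 40 or more bases had a MMTV summit, against 19 in MEF and 26 in Wound. The MMTV list was the largest of the 3. Whether the FVB/NJ genome carries the same runs as the C57BL/6 reference was not tested.

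Reads on long repeats can be hard to place. At MEF+Wound sites the 31 bases at the summit were found once in the genome in 79.1% of cases, against 97.8% in MMTV+Wound and 96% in MEF+MMTV. All 7 words of 31 bases tested across the window were found once at 55% of MEF+Wound, 93.6% of MMTV+Wound and 87.5% of MEF+MMTV sites, and none of them at 2, 8 and 1 sites. Among the sites where all 7 were found once, a run was present at 194 of 376 MEF+Wound (51.6%, 46.6 to 56.6), 31 of 308 MEF+MMTV (10.1%, 7.18 to 13.9) and 14 of 1022 MMTV+Wound sites (1.37%, 0.818 to 2.29), against 6.46% of all such merged sites. The part of read placement in the listing of these sites was not tested.

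The homeodomain word TAATTA by itself followed the same order. It lay within 100 bp of the summit at 86.8% of MEF+Wound, 60.5% of MEF+MMTV and 32.7% of MMTV+Wound sites, against 42.2% of all merged sites and 5.4% to 7.53% of windows 2 kb away. Where it was present, its median distance to the summit was 4.5 bp in MEF+Wound, 15.5 bp in MEF+MMTV and 24.5 bp in MMTV+Wound. The paired dimer word, TAAT and ATTA with 2 bases between, was found at 78.5%, 28.7% and 4.95% of MEF+Wound, MEF+MMTV and MMTV+Wound sites, against 0.366% to 0.852% of windows 2 kb away and 16.5% of all merged sites. A run of TAAT units contains both words by its construction. Among sites without a run, the dimer word remained at 27.9% of 204 MEF+Wound, 17.7% of 305 MEF+MMTV and 3.08% of 1071 MMTV+Wound sites, and TAATTA at 55.9%, 54.4% and 31.4%. With 3 bases between, the dimer word was found at 4.97%, 2.27% and 1.28% of all sites of these pairs.

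Other words separated the pairs too. The AP-1 word TGANTCA, bound by Fos and Jun factors, lay within 100 bp of 22.4% of MEF+MMTV, 19.1% of MMTV+Wound and 9.36% of MEF+Wound summits, against 15.2% of all merged sites and 5.68% to 6.07% of windows 2 kb away. The GC box GGGCGG, bound by Sp and Krüppel-like factors and common in promoters, was found at 15.6% of MMTV+Wound but 1.99% of MEF+MMTV and 2.19% of MEF+Wound sites, against 9.44% of all. CAGCTG, an E-box, was found at 17.8%, 9.94% and 8.04% of these pairs, against 11.9% of all and 9.2%, 8.1% and 8.11% of their windows 2 kb away. CCAAT, the NF-Y word, was found at 28.2% of MEF+Wound, 32.1% of MMTV+Wound and 29.5% of MEF+MMTV sites. In their windows 2 kb away it was found at 28.1%, 23.2% and 28.1%. The TEAD word GGAATG was found at 11.5% of MEF+Wound, 14.7% of MMTV+Wound and 14.8% of MEF+MMTV sites, against 11.5%, 10.1% and 12.8% of their windows 2 kb away. The RUNX word TGTGGT was found at 14.2%, 13.6% and 19.3%, against 16.2%, 14.9% and 13.5%, and the CREB, SMAD, ETS and NFI words at 0% to 1.37%. Windows reaching 250 bp to each side had median GC contents of 40.3% (MEF+Wound), 41.1% (MEF+MMTV) and 48.7% (MMTV+Wound). CpG-rich windows, with a GC content above 55% and an observed to expected CpG ratio above 0.6, made up 15.4% of MMTV+Wound sites and 1 site of each other pair.

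Of the 3 pairs, MMTV+Wound had the highest share of sites near genes. Within 1 kb of a protein-coding TSS lay 319 of 1092 MMTV+Wound sites (29.2%, 26.6 to 32), against 21 of 684 MEF+Wound sites (3.07%, 2.02 to 4.65), 21 of 352 MEF+MMTV sites (5.97%, 3.93 to 8.95) and 18.1% of all merged sites. At a PRRX1 −log10 p of at least 10 in every list the MMTV+Wound share was 15.6%. Among sites of 1 list the shares were 25.6% (Wound), 19.3% (MMTV) and 1.49% (MEF). The difference between MEF+Wound and MMTV+Wound was -26.1 percentage points (-29.1 to -23.1), and that between MEF+Wound and MEF+MMTV was -2.9 points (-6.06 to -0.324). The median distance to the nearest TSS was 40.5 kb, 11.4 kb and 34.6 kb in MEF+Wound, MMTV+Wound and MEF+MMTV. More than 50 kb from any TSS lay 44.6% of MEF+Wound sites, 39.2% of MEF+MMTV sites and 22.6% of MMTV+Wound sites. Without the sites on a tandem run the shares within 1 kb were 3.92%, 29.8% and 5.9% for MEF+Wound, MMTV+Wound and MEF+MMTV. Introns held 40.6% to 47.7% of each pair.

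**Figure D3:**
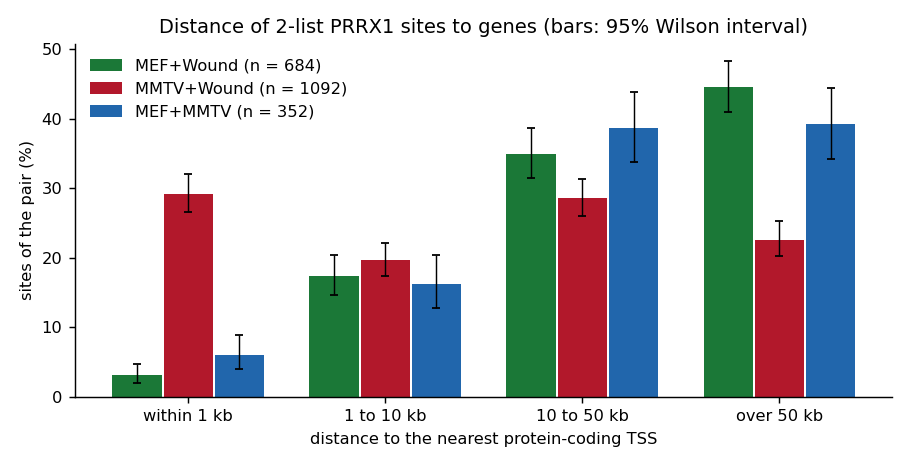
Share of the sites of each pair (%) by distance to the nearest protein-coding TSS, with 95% Wilson intervals as error bars. The MMTV+Wound bar within 1 kb stands at 29.2%, and the MEF+Wound bar is the highest beyond 50 kb at 44.6%.

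H3K27ac was rare at MEF+Wound sites and common at MMTV+Wound sites. An H3K27ac summit lay within 500 bp of 9.5% of MEF+Wound sites in MEF, 5.7% in MMTV and 3.95% in Wound. At MMTV+Wound sites the shares were 58.4%, 62.4% and 53.8%, and at MEF+MMTV sites 34.7%, 33.0% and 17.0%. Over all merged PRRX1 sites they were 34.8%, 37.2% and 28.1%. Both bound types had the mark at 2.78% of MEF+Wound (1.79 to 4.3), 42.5% of MMTV+Wound (39.6 to 45.4) and 22.4% of MEF+MMTV sites (18.4 to 27.1). The shares moved with the distance allowed: within 250 bp they were 1.17%, 17.0% and 9.94%, and within 1 kb 4.97%, 58.4% and 41.8%, in the same order of pairs. No WT type had H3K27ac at 88.5%, 22.3% and 52.8% of the sites. The order was the same farther than 1 kb from a TSS, where both bound types were acetylated at 2.56%, 32.5% and 21.8%.

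The type without a PRRX1 summit often carried the mark as well. Of the 464 MMTV+Wound sites acetylated in both bound types, 411 (88.6%) also had H3K27ac in MEF, where no PRRX1 summit was listed, and 53 did not. Of the 79 such MEF+MMTV sites, 34 (43.0%) also had it in Wound. The 19 such MEF+Wound sites split into 10 with and 9 without the mark in MMTV. At MMTV+Wound sites the share with H3K27ac in MEF thus lay between those of the 2 bound types, whereas at MEF+MMTV sites the share in Wound (17.0%) was below those in MEF (34.7%) and MMTV (33.0%). The Wound H3K27ac list was also the smallest of the WT lists, with 33465 summits against 44918 in MEF and 53873 in MMTV. At sites of all 3 lists, where every type had a PRRX1 summit, 117 had H3K27ac in all WT types. Another 16 had it in MMTV and Wound alone, 76 in MEF and MMTV alone and 19 in MEF and Wound alone.

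**Figure D4:**
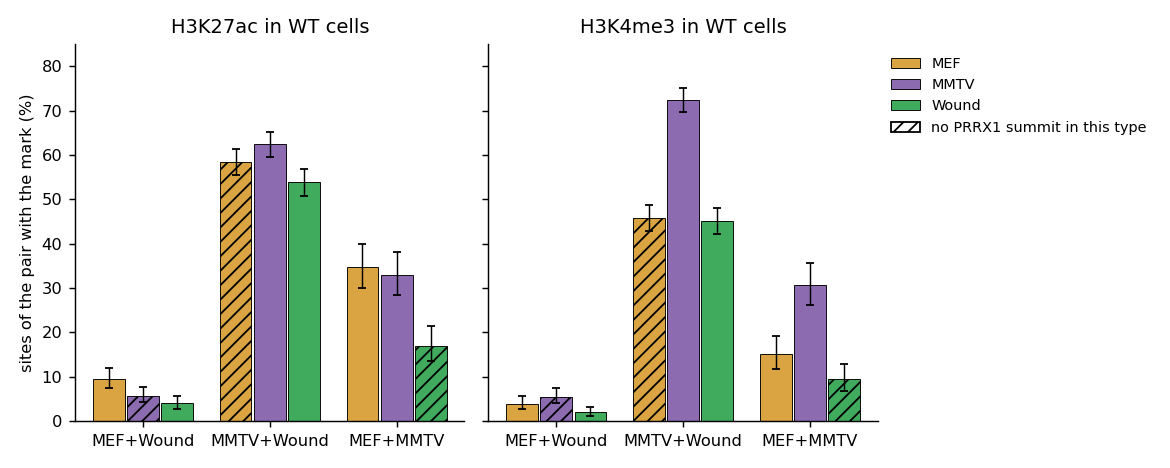
Share of the sites of each pair (%) with H3K27ac (left) and H3K4me3 (right) in the 3 WT types, with 95% Wilson intervals as error bars; hatched bars are types without a PRRX1 summit at these sites. In MMTV+Wound the hatched MEF bar for H3K27ac (58.4%) lies between the bars of the 2 bound types (62.4% and 53.8%).

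Sequence and acetylation went apart. Of the 480 MEF+Wound sites on a tandem run, 7 (1.46%) had H3K27ac in any WT type and 0 had it in both bound types. Of the 204 MEF+Wound sites without a run, 72 (35.3%) had it in some type and 19 (9.31%) in both bound types, still below MMTV+Wound (43.3%) and MEF+MMTV (25.9%) sites without a run. Among MEF+MMTV sites, the mark was present in some type at 4.26% of those with a run, 38.6% of those with TAATTA but no run and 71.9% of those without TAATTA. In MMTV+Wound the corresponding shares were 14.3%, 71.1% and 82.6%. Over all 2128 sites, TAATTA was found at 31% of the 1094 sites acetylated in some WT type and at 79.8% of the 1034 others.

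H3K4me3 separated the pairs in the same order. Both bound types had an H3K4me3 region over the site at 1.9% of MEF+Wound (1.11 to 3.22), 44.9% of MMTV+Wound (41.9 to 47.8) and 14.5% of MEF+MMTV sites (11.2 to 18.5). In MEF, MMTV and Wound it covered 3.8%, 5.41% and 1.9% of MEF+Wound sites, 45.7%, 72.4% and 45.1% of MMTV+Wound sites, and 15.1%, 30.7% and 9.38% of MEF+MMTV sites. The shares of all merged PRRX1 sites were 27.1%, 43.1% and 25.8%. The MMTV list held more regions (27339) than those of MEF (16089) and Wound (16961). Within 1 kb of a TSS, 93.7% to 99.4% of the 319 MMTV+Wound sites were covered in each WT type, while 28.6% to 33.3% of the 21 MEF+Wound sites were.

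In SG MEF, H3K27ac was found again at a lower share of the sites that MEF shared than of all WT summits or of all acetylated PRRX1 sites. Of the 65 MEF+Wound sites acetylated in WT MEF, 22 (33.8%, 23.5 to 46.0) were marked in KI and 30 (46.2%, 34.6 to 58.1) in SG MEF. Of the 122 MEF+MMTV sites acetylated in WT MEF, 47 (38.5%, 30.4 to 47.4) were marked in KI and 71 (58.2%, 49.3 to 66.6) in SG. Over all WT MEF summits, 44.3% had a KI summit and 68.2% an SG summit within 500 bp. Over all 4669 merged PRRX1 sites acetylated in WT MEF, counted in the same way as the pairs, 57.4% were marked in KI and 75.1% in SG, and over the 204 such sites of MEF alone 27% and 43.6%. At the 638 MMTV+Wound sites acetylated in WT MEF, where MEF had no PRRX1 summit, 60.7% (56.8 to 64.4) and 82.0% (78.8 to 84.8) were marked in KI and SG. The intervals of both MEF-bound pairs lay below the KI and SG shares of all merged sites. They lay below the SG share of all WT summits too, but included the KI share of all WT summits. Farther than 1 kb from a TSS, 49.1% of all such merged sites were marked in KI and 67.9% in SG. The SG shares there were 45% (33.1 to 57.5), 58.4% (49.2 to 67.1) and 78.2% for MEF+Wound, MEF+MMTV and MMTV+Wound. The KI shares there were 36.7% (25.6 to 49.3) for MEF+Wound and 36.3% (28.0 to 45.5) for MEF+MMTV. At this distance the MEF+Wound interval thus included the KI share of merged sites. With H3K27ac counted within 1 kb of a PRRX1 summit, the SG share at MEF+Wound sites was 66.0% and that at MEF+MMTV sites 70.3%. The shares of all WT summits and of all merged sites were not counted within 1 kb. These values therefore cannot be set against those above, which are within 500 bp. The KI list was smaller and weaker (29325 summits, median −log10 p 11.9) than the WT MEF list (44918, median 18.5) and the SG list (43019, median 21.2).

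In SG MMTV, 67.2% (58.3 to 75.1) of 116 acetylated MEF+MMTV sites and 79.0% (75.8 to 81.9) of 681 MMTV+Wound sites were marked again, against 63.9% of all WT summits and 75.1% of all merged PRRX1 sites acetylated in WT MMTV. In SG Wound, 70.4% (51.5 to 84.1) of 27 MEF+Wound sites and 77.5% (74.0 to 80.7) of 587 MMTV+Wound sites were, against 67.7% of all WT summits and 76.4% of merged sites. The MMTV+Wound share in MMTV lay above both, and its interval in Wound included the share of merged sites. The MEF+MMTV share in MMTV and the MEF+Wound share in Wound lay above the first and below the second. The MEF+MMTV interval in MMTV included the share of all WT summits and reached that of merged sites. The MEF+Wound interval in Wound included both. In the types without a PRRX1 summit, 26 of 39 MEF+Wound sites (66.7%) in SG MMTV and 46 of 60 MEF+MMTV sites (76.7%) in SG Wound were marked again.

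**Figure D5:**
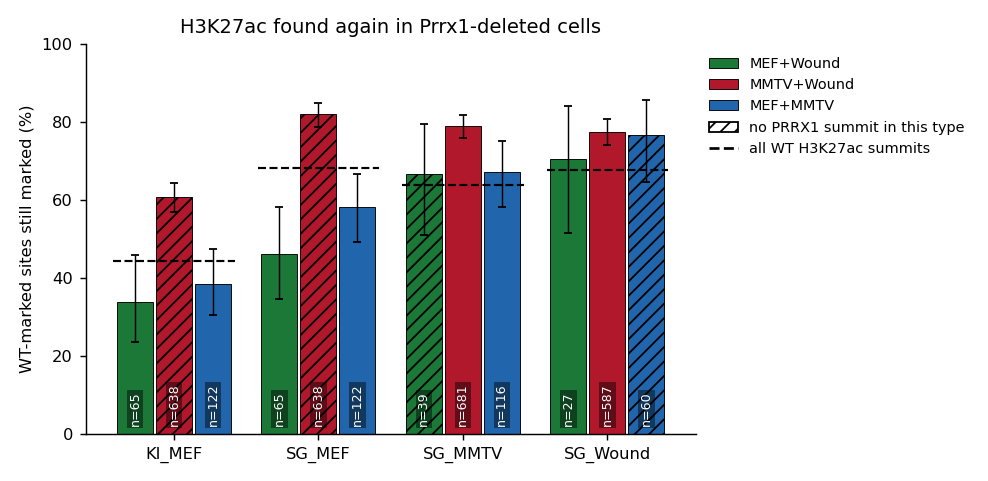
Share of the sites acetylated in WT cells that had H3K27ac in each Prrx1-deleted library (%), with 95% Wilson intervals as error bars and the number of WT-marked sites in each bar; dashed lines show all WT H3K27ac summits, hatched bars types without a PRRX1 summit. In SG_MEF the MEF+Wound (46.2%) and MEF+MMTV (58.2%) bars lie below the dashed line at 68.2% and the MMTV+Wound bar (82.0%) above it.

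H3K4me3 was found again at 53.8% of 26 MEF+Wound, 54.7% of 53 MEF+MMTV and 75.4% of 499 MMTV+Wound sites in KI MEF, against 73.7% of all WT MEF regions and 77.1% of merged PRRX1 sites with the mark in WT MEF. In SG MEF the shares were 69.2%, 58.5% and 90.4%, against 87.5% and 90.4%. In SG MMTV 83.3% of MEF+MMTV and 90.9% of MMTV+Wound sites kept the mark (76.0% of all regions and 88.1% of merged sites), and in SG Wound 92.3% of 13 MEF+Wound and 95.3% of MMTV+Wound sites (92.5% of all regions and 96.7% of merged sites). The numbers of MEF+Wound sites are small here.

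Genes near the sites were counted within 10 kb of a TSS in 19 lists of 646 annotated genes. Such a site was found for 658 protein-coding genes in MMTV+Wound (2.96% of all), 164 in MEF+Wound (0.738%) and 90 in MEF+MMTV (0.405%). Of the 646 listed genes, 54 (8.36%), 13 (2.01%) and 5 (0.774%) had one. Genes differ in length and in their number of TSSs, which these shares do not take into account.

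Of 12 fibrillar and fibril-associated collagen genes, 2 had a MMTV+Wound site within 10 kb (Col1a1 and Col1a2), 1 a MEF+Wound site and 1 a MEF+MMTV site (Col1a2 in both). Of all protein-coding genes, 2.96%, 0.738% and 0.405% had a site of these pairs, in this order. Col1a2, a chain of type I collagen, was the nearest gene of 9 sites (6 MMTV+Wound, 2 MEF+Wound and 1 MEF+MMTV), more than any other gene. A MMTV+Wound site lay 1.15 kb and a MEF+Wound site 1.84 kb downstream of a TSS of Col1a2, and the MEF+MMTV site lay 6.54 kb downstream. The first and the last had H3K27ac in MEF and MMTV and not in Wound, and the MEF+Wound site had it in Wound alone, so the types with the mark were those with PRRX1 summits at 1 of these 3 sites. Upstream of Col1a1, which encodes the other chain, lay a MEF+Wound site at 13.4 kb (−log10 p 14.1 in MEF and 6.62 in Wound) and a MMTV+Wound site at 7.13 kb (7.82 in MMTV and 12.7 in Wound). Col4a1 and Col4a2, basement membrane collagens that share a bidirectional promoter, were 2 of 10 genes of their list with a MEF+Wound site, the same site for both. That site lay in an intron, 5.98 and 5.96 kb from their TSSs (22.0 in MEF and 6.32 in Wound), with no H3K27ac or H3K4me3 in any WT type. MMTV+Wound and MEF+MMTV had 0 of 10 within 10 kb, which is near their shares of all genes. Col4a2 was the nearest gene of 3 MMTV+Wound sites farther off.

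Among matrix glycoproteins and proteoglycans, 3 of 32 genes had a MEF+Wound site within 10 kb (0.738% of all genes had one), all within 1 kb of a TSS. Postn, which encodes periostin, had it 426 bp downstream, with −log10 p of 20.4 in MEF and 12.6 in Wound, TAATTA, and neither mark in any WT type. Nid2, a basement membrane nidogen, had a site 127 bp upstream (19 and 21.3) with H3K27ac in MEF and Wound and not in MMTV. Dcn, which encodes the proteoglycan decorin, had a site 73 bp upstream (8.93 and 4.47) with H3K27ac in MEF and MMTV and not in Wound, although its PRRX1 summits were those of MEF and Wound. MMTV+Wound sites lay within 10 kb of Fbln2, Lamb1, Thbs1, Thbs2 and Tnc (5 of 32), and MEF+MMTV sites of 0. The 30 cross-linking and remodelling enzymes had 0 within 10 kb in each pair, which is near the share of all genes (2.96% for MMTV+Wound and less for the other pairs).

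Of 35 contractile and myofibroblast genes, 7 had a MMTV+Wound site within 10 kb, where 2.96% of all protein-coding genes had one. The other pairs had 0 of 35, and with 0.738% and 0.405% of all genes near a MEF+Wound or MEF+MMTV site a list of this length cannot show fewer than background. At 2.96%, a count of 0 in a list of about 30 genes is near background for MMTV+Wound too. Flna, an actin-linking filamin, had a site 13 bp downstream of a TSS with −log10 p of 8.29 in MMTV and 6.32 in Wound. Actb (beta-actin) had one 73 bp downstream (5.45 and 5.39), Cald1 (caldesmon) 302 bp upstream (8.05 and 6.32) and Myh9 (non-muscle myosin heavy chain) 531 bp upstream (13.9 and 5.39). Cnn2 and Tpm4 were among those with one between 1 and 10 kb. H3K4me3 covered the sites of the first 4 in all WT types, and H3K27ac was present in MEF, without a PRRX1 summit, at Flna, Actb and Cald1 and not at Myh9.

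TGF-beta and BMP signalling had 6 of 45 genes (13.3%) within 10 kb of a MMTV+Wound site. The share was 2.96% over all protein-coding genes and 8.36% over all listed genes. The other pairs had 0 of 45, which is near their shares of all genes (0.738% for MEF+Wound and 0.405% for MEF+MMTV). Ltbp1, which holds latent TGF-beta in the matrix, had a site 188 bp upstream (14.5 in MMTV and 5.39 in Wound), Tgif1, a homeobox co-repressor of Smad signalling, 253 bp downstream (5.78 and 8.31), and Pmepa1, a target that dampens the pathway, 715 bp upstream (11.6 and 4.58). Eng, Fstl1 and Smad7 had one between 1 and 10 kb. Of the Hippo genes, 5 of 26 (19.2%) had a MMTV+Wound site, against the same 2.96% and 8.36%. The one at Yap1, the pathway's co-activator, lay 1.4 kb downstream with −log10 p of 44.5 in MMTV and 7.3 in Wound, and had H3K4me3 but no H3K27ac summit in the 3 WT types. Nf2, an upstream activator of the pathway, had a MEF+Wound site 7.71 kb upstream.

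Of 56 homeobox genes, 9 (16.1%) had a MMTV+Wound site within 10 kb, against 2.96% of all protein-coding genes, with those of Pknox1, Hoxc6, Hoxa9, Pbx2 and Shox2 within 1 kb. Pbx2 and Hoxa9 had H3K27ac in all 3 WT types, and Pknox1, Hoxc6 and Shox2 in none. Zfhx4 alone had a MEF+Wound site, 4 bp from a TSS (6.97 and 5.39), and Prrx1 alone a MEF+MMTV site. Among AP-1, Krüppel-like, C/EBP and NFI factors 4 of 30 had a MMTV+Wound site, namely Cebpb at 192 bp and Fosl2 at 804 bp, with Nfib and Nfix farther off. Tcf12, a partner of bHLH lineage factors, had a MEF+Wound site 613 bp downstream, and Tbx18 a MMTV+Wound site 51 bp downstream.

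In the remaining lists 0 to 3 genes each had a site of a pair within 10 kb. Of 23 integrin and adhesion genes, MMTV+Wound and MEF+Wound had 2 each, among them Cdh2 4.88 kb from a MEF+Wound site. Of 35 growth factors and receptors 3 had a MMTV+Wound and 1 a MEF+MMTV site, of 39 angiogenesis genes 2 a MMTV+Wound site, and of 28 cytokine genes Il6 a MMTV+Wound and Cxcl5 a MEF+MMTV site. Of 43 Wnt genes each pair had 1, with Lrp6 in MEF+Wound. Of 43 chromatin genes 2, of 42 translation genes 2 and of 36 cell cycle genes 1, Cdkn2c, had a MMTV+Wound site, and Rpl10 of the translation list a MEF+Wound site. MMTV+Wound sites lay within 1 kb of Itgav, Il6, Hdac7, Fgfr1, Nrp1 and Rpl3. Itgav, an integrin chain that can release TGF-beta from its latent form, had in addition a MEF+Wound site 9.37 kb upstream (13.6 in MEF and 7.3 in Wound). MEF+MMTV sites lay within 1 kb of a TSS of Fgfr2, a fibroblast growth factor receptor, and of Apc, a negative regulator of Wnt signalling. Both lay in introns. The Fgfr2 site was 666 bp upstream of that TSS (11.3 in MEF and 12.9 in MMTV), with no H3K27ac or H3K4me3 in any WT type. The Apc site was 960 bp upstream (10.6 and 7.47) and had H3K4me3 in MMTV alone of the WT types. The 34 neuronal adhesion and synapse genes had 0 within 10 kb in each pair, which is near the share of all genes (2.96%, 0.738% and 0.405% for MMTV+Wound, MEF+Wound and MEF+MMTV).

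At Prrx1 itself a MEF+MMTV site (chr1:165243484-165244031, mm9) lay 65 bp downstream of a TSS, in untranslated exon sequence, with −log10 p of 3.6 in MEF and 7.12 in MMTV. It held TAATTA and had H3K4me3 in all 3 WT types and no H3K27ac summit within 500 bp in any of them. A site of all 3 lists lay 1.18 kb upstream. At a −log10 p of at least 5 in every list the MEF summit falls away.

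Among the sites with the best placing in both lists, those of MEF+Wound lay beside Chd9, 2700029M09Rik, Pank3, Nuf2 and Aak1, at 18.9 to 252 kb from the TSS, with runs of 32 to 56 bases and without H3K27ac or H3K4me3 in any WT type. The highest, 34.5 kb downstream of the Chd9 TSS, ranked 1 of the MEF list with a −log10 p of 113 and reached 35.8 in Wound. The MEF+MMTV sites beside Tacr3, Tbx1, Klf6 and Eif2b3 had no TAATTA and H3K27ac in MEF and MMTV, and the one beside Tbx1 also in Wound, while the one beside Trpc7 had TAATTA and neither mark. The MMTV+Wound site 9.46 kb upstream of the TSS of Txndc11 ranked 1 of the MMTV list (92.4) and 4 of the Wound list (75.7), and each of its 7 tested words occurred 2 to 4 times in the genome. The site nearest to Pxmp3 (80.9 and 89.2) had a central word with 11 copies. Whether these top sites, or those below, lie in repeated elements whose reads come from other copies was not tested. Another 8 MMTV+Wound sites lay in the first stretch of chromosome 9 (chr9:3000205-3036431), with 5 sites of MMTV alone and 3 of Wound alone and 0 of MEF. Without the sites whose tested words were all multi-copy, MMTV+Wound kept 1084 of 1092 sites.

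Some chromosomes held more sites than their length. Chromosome 8, with 4.96% of the genome, held 12.9% of MEF+Wound and 11.7% of MMTV+Wound sites but 3.12% of MEF+MMTV sites. Of all PRRX1 summits it held 12.7% in MEF, 14.7% in Wound and 4.75% in MMTV, while it held 5.36% to 6.44% of the WT H3K27ac summits. Chromosome 15, with 3.9% of the genome, held 9.66% of MEF+MMTV, 7.33% of MMTV+Wound and 3.07% of MEF+Wound sites. It held 9.76% of the MMTV, 5.64% of the MEF and 4.77% of the Wound PRRX1 summits. Of the WT H3K27ac summits it held 5.09% to 5.9%. Chromosome 2, with 6.85% of the genome, held 8.52% to 10.3% of each pair and 7.99% to 8.27% of the WT H3K27ac summits. The part of chromosome copy number in these cultured lines was not tested.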

How the data were processed

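Peak lists of 17 ChIP-seq libraries of mouse fibroblasts were analysed, 1 per group, grouped by sample title. Per the study's methods, reads were trimmed (Trimmomatic), mapped to mm9 (Bowtie) and freed of duplicates, and the authors called peaks against input with MACS2. In the PRRX1 and H3K27ac files each line is a summit of 1 bp with the authors' −log10 p. The H3K4me3 files give broad regions with the deposited fold over input (a ratio, not used), −log10 p and −log10 q. The PRRX1 lists reach down to a −log10 p of 3, below the cutoff the methods name. The PRRX1 ChIP is described as duplicated and with IgG as a control. Neither pooling nor a use of IgG in the peak calling is stated. Inputs (7 samples) were not analysed here.

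Summits within 500 bp were merged. H3K27ac counted when within 500 bp of a PRRX1 summit of the site, and H3K4me3 when its region overlapped the site. TSSs were those of protein-coding transcripts (GENCODE vM1 on NCBIM37, the same build as mm9), and 13 words were sought on both strands within 100 bp of the best ranked summit. Tandem runs were searched without mismatch. Code was tested on simulated data and run with Python 3.11.15, pandas 2.3.3, pysam 0.24.0 and numpy 2.4.6. Genes and sites named by rule were the 5 sites per pair with the best placing in their weaker list, listed genes with a site within 1 kb, the 8 nearest within 10 kb, Prrx1 and Col1a1. Further listed genes were named after their positions were seen. The members and gene lists were chosen with earlier results of these data known.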

Additional observations from a re-analysis of the deposited data

Results flagged for a closer look

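In some pairs the number of sites with a mark fell in both deleted MEF libraries and rose in a deleted MMTV or Wound library, with 1 library per group. The difference was not tested. Both deleted MEF libraries were compared with the same WT MEF library, so their falls are not independent of each other. At MEF+Wound sites the number with H3K27ac changed by -49.2% in KI and -38.5% in SG MEF, by 12.8% in SG MMTV (39 to 44 sites) and by 88.9% in SG Wound (27 to 51 sites). Over all merged PRRX1 sites it changed by -29.1% in KI MEF, -11.4% in SG MEF, -2.23% in SG MMTV and 10.9% in SG Wound, so a fall in MEF and a rise in SG Wound were also seen without regard to the pair. At MEF+MMTV sites the number with H3K27ac changed by -50.0% and -27.0% in KI and SG MEF, by 33.3% in SG Wound, and in SG MMTV by -14.7%, the same direction as in MEF. At MMTV+Wound sites it changed in the same direction in every deleted library, by -26.6% (KI MEF), -7.05% (SG MEF), -3.96% (SG MMTV) and -1.36% (SG Wound). The whole H3K27ac lists changed by -34.7% (KI MEF), -4.23% (SG MEF), 14.3% (SG MMTV) and 28.7% (SG Wound).

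The number of MEF+Wound sites with H3K4me3 changed by -42.3% in KI MEF, -26.9% in SG MEF, 51.4% in SG MMTV and 76.9% in SG Wound. At MMTV+Wound sites it changed by -24.0% in KI and -8.22% in SG MEF, -1.52% in SG MMTV and 11.6% in SG Wound. At MEF+MMTV sites it changed by -34.0% in KI and -34.0% in SG MEF, 9.26% in SG MMTV and 39.4% in SG Wound. Over all merged PRRX1 sites it changed by -21.2%, -7.66%, -0.657% and 13.7% in KI MEF, SG MEF, SG MMTV and SG Wound, close to the values of MMTV+Wound. The whole H3K4me3 lists changed by -18.4%, -8.83%, 6.68% and 15.8% in KI MEF, SG MEF, SG MMTV and SG Wound. The part of the list sizes in these changes was not tested.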

How the results depend on the processing

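Of 132 values under other planned settings, 89 stayed within the 95% interval of the reported share or within 1.5 times the reported count and 43 did not. Of 81 values under settings that were not planned, 73 stayed and 8 did not. The order of the pairs by TSS, H3K27ac, H3K4me3 and TAATTA share was the same in every alternative run, and that by number of sites in 6 of 9. The cause of each shift was not tested.
With a PRRX1 −log10 p of at least 10 the counts were 247 MEF+Wound, 192 MMTV+Wound and 122 MEF+MMTV sites. MMTV+Wound then had 15.6% within 1 kb of a TSS, 35.4% with H3K27ac and 37.5% with H3K4me3 in both bound types. H3K4me3 in both types was 0.81% in MEF+Wound (1.11% at a −log10 p of at least 5) and 18.9% in MEF+MMTV, and TAATTA was 93.9%, 20.8% and 53.3% in MEF+Wound, MMTV+Wound and MEF+MMTV. With lists of equal size MMTV+Wound had 446 sites, 24.2% within 1 kb of a TSS and 37.9% with H3K27ac, and MEF+MMTV had 28.7% with H3K27ac.
Within 2.5 kb of a TSS lay 5.99% of MEF+Wound, 37.5% of MMTV+Wound and 11.6% of MEF+MMTV sites. H3K27ac in both types was 1.17%, 17.0% and 9.94% within 250 bp, 4.97%, 58.4% and 41.8% within 1 kb, and 37.3% in MMTV+Wound at a −log10 p of at least 10. H3K4me3 at a −log10 p of at least 10 was 36.3% in MMTV+Wound and 8.24% in MEF+MMTV. Windows of 500 bp gave MMTV+Wound 46.3% H3K27ac and 48.8% H3K4me3, and windows of 100 bp 38.9% H3K4me3. TAATTA within 50 bp was 79.5%, 24.4% and 48.6%.
H3K27ac kept after deletion, counted within 1 kb, was 66.0% (SG MEF), 83.6% (SG MMTV) and 84.2% (SG Wound) in MEF+Wound, 68.5% (KI MEF), 88.9% (SG MEF), 87.5% (SG MMTV) and 88.5% (SG Wound) in MMTV+Wound, and 70.3% (SG MEF) in MEF+MMTV. With lists of equal size KI MEF kept 69.0% in MMTV+Wound.
Without tandem runs, chosen after seeing the data, MEF+Wound had 204 sites, 9.31% with H3K27ac and 5.88% with H3K4me3 in both types and 55.9% with TAATTA, and MEF+MMTV had 54.4% with TAATTA. With the sites whose 7 words were all found once, also chosen after seeing the data, MEF+Wound had 376 sites, 5.05% with H3K27ac in both types and 77.7% with TAATTA. Leaving out only the 2, 8 and 1 sites with no word found once removed too few sites to move a value. No paired analysis was possible because every group has 1 library and no result comes from a test.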
